A study of Bos taurus with 72 samples.

Results

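The haptoglobin transcript was followed in whole blood of beef cattle through a single row of the count table, ENSBTAG00000006354, which is 1 of 24616 Ensembl genes measured. The row was chosen by its identifier and not by its values. The count table lists identifiers without names, so the assignment of this identifier to bovine haptoglobin (HP) was taken as given, and the gene table at hand holds 0 Ensembl identifiers, so that other genes could not be named either. The samples were blood from 24 male beef cattle, each taken at 3 stages, which the labels call entry, pulled and close-out, with 24 libraries per stage. The title of the series names bovine respiratory disease as its subject. All 3 groups are the same animals, so a later stage is also a greater age. The labels give no treatment, diagnosis, age or interval between stages, and a healthy comparison group was not analysed here. Animals were kept, per the labels' protocols, only where their RNA passed a minimum integrity at every stage.

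Haptoglobin is a plasma protein that binds haemoglobin set free by broken red cells, and the complex is taken up by macrophages through the receptor CD163, which keeps haem iron away from bacteria. In cattle it is a main acute-phase protein, secreted by the liver in response to interleukin-6 and related cytokines, and its serum concentration is used as a marker of inflammation, respiratory disease included. Neutrophils and other myeloid cells also make it. RNA from blood reports the transcript in circulating cells and not the serum protein, and in such bulk samples fewer cells of a type and less RNA per cell cannot be told apart. Markers of blood or liver cells could not be looked up by name in this table, so the labelled tissue was not checked against them.

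The libraries held between 8.24 M and 29.1 M counted reads (M, megareads). Earlier work on these data found that the entry libraries of the 6 animals with library title numbers above 100 stand apart from those of the other 18 animals, with numbers up to 98, so HP is given over all animals and within each set. This division is not a group of the study. The labels of 2 pulled libraries are in doubt. Libraries were compared over the 100 genes whose differences between the other 22 animals repeated best between entry and close-out. Animals 9 and 12 had no part in that choice, and how well these genes mark those 2 animals was not tested. The other 22 pulled libraries each matched their own animal best, at a correlation of 0.844 or more across genes. Their highest value with another animal was 0.524. The library labelled pulled of animal 9 matched its own animal at -0.03 and animal 11 at 0.957, and its counts differed from those of the entry library of animal 11 by a chi-square of 1.46 per degree of freedom, against 29.1 or more for every other of the 2556 pairs of libraries. The library labelled pulled of animal 12 matched its own animal at 0.140 and no other animal above 0.313. Both were kept under their labels, and values without them are given where they bear on a result.

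HP was an abundant transcript at all 3 stages and was lowest at close-out. In TMM-scaled CPM, that is read counts relative to library size after scaling by the trimmed mean of M-values, the entry libraries ran from 159 CPM to 3706 CPM with a median of 572 CPM. The pulled libraries ran from 36.1 CPM to 2166 CPM with a median of 496 CPM. The close-out libraries ran from 72.8 CPM to 1405 CPM with a median of 207 CPM. The ranges overlapped widely, and the fall at close-out lay in the bulk of the animals: 23 of 24 close-out libraries were below the median of the entry libraries and 23 below that of the pulled libraries. Apart from animal 10, no close-out library exceeded 438 CPM, a level that 13 entry libraries and 13 pulled libraries exceeded. Mean log2 CPM was 9.12 ± 1.12 in entry, 8.86 ± 1.29 in pulled and 7.76 ± 0.85 in close-out libraries (SD, n = 24 each). Ranked by count among all genes of its library, HP had a median rank of 304.5 in entry libraries, 422.5 in pulled libraries and 937.5 in close-out libraries, where rank 1 is the most abundant gene. The values rest on 466 to 47103 reads per library. The lowest count, 466 reads in the pulled library of animal 4, has a 95% exact Poisson interval of 425 to 510 reads, which covers counting error only.

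**Figure D1:**
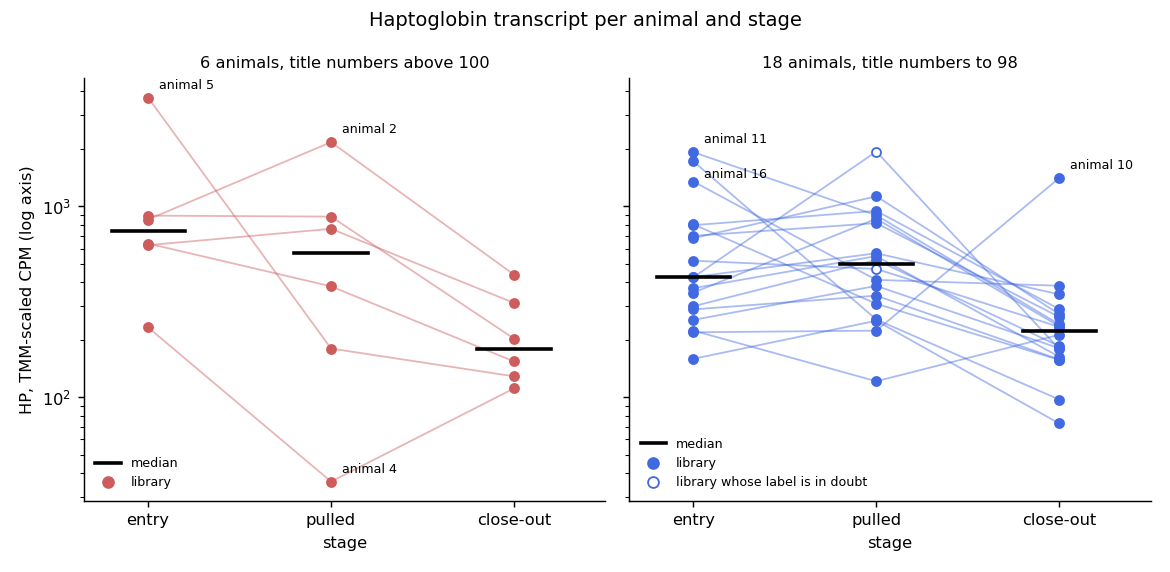
HP level in TMM-scaled CPM on a log axis at entry, pulled and close-out, with 1 point per library, 1 line per animal and a black bar at the median, for the 6 animals with title numbers above 100 (left) and the 18 with numbers up to 98 (right). Open points are the libraries labelled pulled of animals 9 and 12, whose labels are in doubt. Most lines fall toward close-out, while between entry and pulled they run both ways.

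The animals did not follow a single course. HP was highest at pulled in 13 animals, at entry in 10 and at close-out in 1, and it was lowest at close-out in 21 animals. Without animals 9 and 12, whose pulled libraries are in doubt, HP was highest at pulled in 12 of 22 animals. It was highest at entry in 9 of these and at close-out in 1, and lowest at close-out in 19. In the 6 animals it was highest at pulled in 2 and at entry in 4, and in the 18 it was highest at pulled in 11, at entry in 6 and at close-out in 1. The highest entry level was that of animal 5, with 3706 CPM at entry, 180 CPM at pulled and 128 CPM at close-out. Animal 16 had a like course, with 1720 CPM at entry, 255 CPM at pulled and 97.1 CPM at close-out. Both animals had their peak at entry and were below the median of their stage when pulled. Animal 11 had 1920 CPM at entry, 897 CPM at pulled and 241 CPM at close-out, and animal 1 had 1347 CPM, 411 CPM and 383 CPM at these stages.

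Other animals peaked when pulled. Animal 2 had 852 CPM at entry, 2166 CPM at pulled and 438 CPM at close-out. Animal 14 had 680 CPM at entry, 1128 CPM at pulled and 272 CPM at close-out, and animal 19 had 352 CPM, 860 CPM and 235 CPM. The library labelled pulled of animal 9 held 1934 CPM, against 425 CPM at entry and 179 CPM at close-out of animal 9. That value is close to the 1920 CPM of the entry library of animal 11, which its counts matched over all genes.

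Animals 4, 10 and 17 were the exceptions in which the level at close-out was above that at pulled. Animal 10 had 1405 CPM at close-out, against 223 CPM at pulled and 219 CPM at entry, and it was the single animal with more HP at close-out than at entry. Without it the close-out libraries ran from 72.8 CPM to 438 CPM, a 6.02-fold range in 23 animals, against a 19.3-fold range with it. Animal 4 had 232 CPM at entry, 36.1 CPM at pulled, the lowest value of all 72 libraries, and 111 CPM at close-out. Animal 17 had 223 CPM at entry, 121 CPM at pulled and 212 CPM at close-out. The values of 2 extreme libraries depended on the scaling used. The entry library of animal 5 had the lowest TMM factor of its stage (0.676) and the close-out library of animal 10 likewise (0.766). By library total alone, without that factor, they held 2504 and 1076 CPM. Which scaling is nearer to the level in the blood was not tested.

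Whether HP differed when the animals were pulled was asked against entry. It did not pass. The log2 fold change was -0.20 (SE 0.30, edgeR quasi-likelihood test, adjusted p = 0.592), in a comparison where 42.0% of the 12655 genes tested passed the threshold of 0.05 in either direction. HP was higher at pulled in 14 animals and lower in 10, and it changed more than 2-fold upward in 3 animals and downward in 6. The mean difference was -0.26 ± 1.48 log2 units (SD, n = 24), and the largest fall was 20.6-fold, in animal 5. The largest rise, 4.55-fold, was that of animal 9, whose pulled library is in doubt. Without animals 9 and 12 the largest rise was 2.54-fold, and 2 animals rose and 6 fell by more than 2-fold. A two-sided sign-flip permutation test over the animals gave an adjusted p of 0.463 over 9 tests. The median difference was 0.23 log2 units. With library totals in place of TMM, 12 animals were higher and 12 lower, and the mean and median differences were -0.41 and -0.02, so the sign of the median and the split of animals moved with the scaling. In animal 5 HP fell by 4.37 log2 units. Leaving out that animal moved the log2 fold change to -0.03 (edgeR adjusted p = 0.944), and leaving out animal 9 moved it to -0.35 (edgeR adjusted p = 0.315). Leaving out the pulled libraries of animals 9 and 12 gave a log2 fold change of -0.32 (edgeR adjusted p = 0.373). The mean paired difference was then -0.37 log2 units (sign-flip permutation test, adjusted p = 0.322).

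HP fell at close-out relative to pulled. The log2 fold change was -1.20 (SE 0.30, edgeR adjusted p = 0.00183), so that the level at close-out was 0.435 of that at pulled. In this comparison 13.9% of genes passed as lower and 27.2% in either direction, with 1681 genes higher and 1765 lower. Scaled by library totals in place of TMM, 2786 genes were higher and 872 lower, the median of all genes was 0.13 in place of -0.01, and HP had a log2 fold change of -1.07 (edgeR adjusted p = 0.00262). HP stood at rank 199 of 12655 genes by the size of its fall. HP was lower at close-out in 21 of 24 animals, by more than 2-fold in 17, and the mean paired difference was -1.10 ± 1.30 log2 units (SD, n = 24, permutation test, adjusted p = 0.0031). Leaving out both doubted pulled libraries, the log2 fold change was -1.08 (edgeR adjusted p = 0.0053), and HP was lower in 19 of 22 animals. Tested against a 1.5-fold change in place of no change, the fall did not pass (edgeR adjusted p = 0.157).

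HP was also lower at close-out than at entry. The log2 fold change was -1.40 (SE 0.30, edgeR adjusted p = 0.000685), a level at close-out of 0.378 of that at entry, where 12.0% of genes passed as lower and 22.2% in either direction. With 1295 genes higher and 1517 lower under TMM, library totals gave 1501 higher and 1073 lower, and HP had a log2 fold change of -1.42 (edgeR adjusted p = 0.000198). By the size of its fall HP stood at rank 83 of 12655 genes. It was lower in 23 of 24 animals, by more than 2-fold in 16, with a mean paired difference of -1.36 ± 1.42 log2 units (SD, n = 24, permutation test, adjusted p = 9e-04). Tested against a 1.5-fold change the fall did not pass (edgeR adjusted p = 0.0803). Both comparisons of this kind share the close-out libraries, so the 2 falls are not separate evidence.

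**Figure D2:**
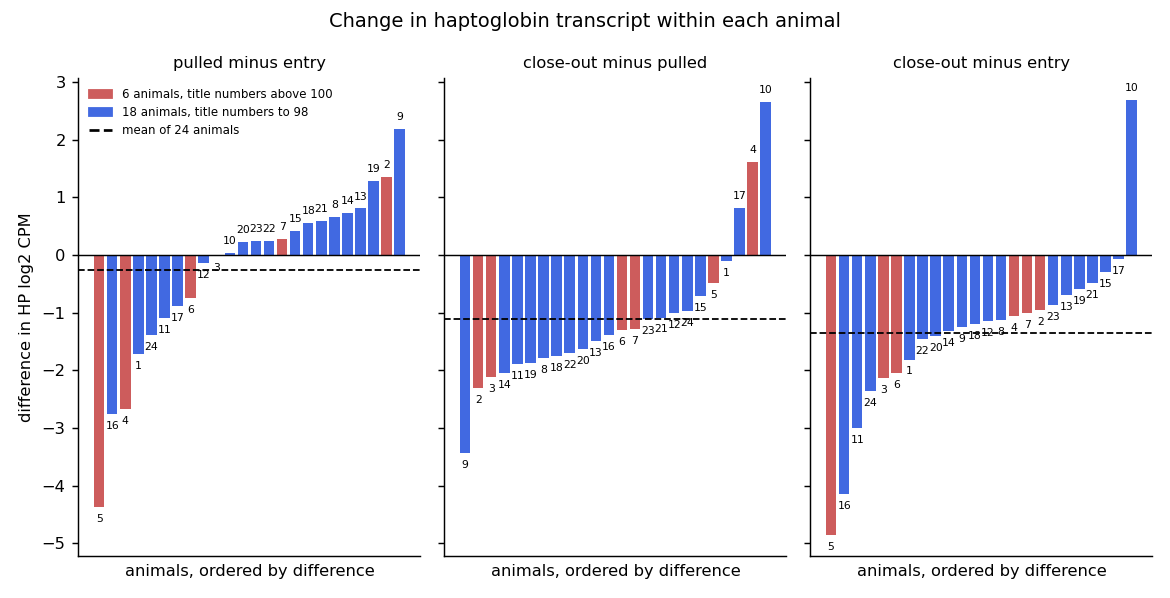
Difference in HP log2 CPM within each animal for pulled minus entry, close-out minus pulled and close-out minus entry, with 1 bar per animal, labelled by animal number and ordered by its difference. The dashed line is the mean of 24 animals, at -0.26, -1.10 and -1.36 log2 units. Bars run both ways for pulled minus entry, while 21 and 23 of 24 animals are below 0 in the comparisons of close-out.

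Within the sets of animals the falls at close-out had the same direction. At close-out against entry, the log2 fold change was -2.12 in the 6 animals (SE 0.66, edgeR adjusted p = 0.0218), where 19.5% of genes passed as lower and 40.1% in either direction, and -1.17 in the 18 animals (SE 0.32, edgeR adjusted p = 0.00195), where 34.2% passed as lower and 64.7% in either direction. HP was lower in 6 of 6 and in 17 of 18 animals. With library totals the log2 fold changes were -1.66 in the 6 animals, where 5838 genes were higher, 435 lower and the median of all genes was 0.52, and -1.34 in the 18, where 2201 were higher, 5434 lower and the median was -0.18. Without animal 6 the result of the 6 animals no longer passed (log2 fold change -2.15, edgeR adjusted p = 0.0706), and the exact sign-flip permutation test, whose smallest p is 0.0312 with 6 animals, gave an adjusted p of 0.0563. At close-out against pulled, the log2 fold change was -1.23 in the 6 animals (SE 0.64, edgeR adjusted p = 0.357) and -1.18 in the 18 (SE 0.32, edgeR adjusted p = 0.0048). In the 6 animals 1.38% of genes passed as lower and 2.52% in either direction in that comparison, and in the 18 animals 14.3% and 27.9% did. With library totals these comparisons had 280 genes higher of 427 past the threshold in the 6 animals, and 2819 higher and 848 lower in the 18. Leaving out the doubted pulled libraries, the log2 fold change of HP for close-out against pulled in the 18 was -1.03 (edgeR adjusted p = 0.0109).

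At pulled against entry the log2 fold change was -0.89 in the 6 animals (SE 0.67, edgeR adjusted p = 0.298), or -0.16 without animal 5 (edgeR adjusted p = 0.805), and 0.02 in the 18 (SE 0.31, edgeR adjusted p = 0.966). In that comparison 41.3% of genes passed in the 6 animals and 70.9% in the 18. The difference between the sets was tested as an interaction term. For pulled against entry it was -0.90 on the log2 scale, 6 animals minus 18 (SE 0.71, edgeR adjusted p = 0.258), in a test that 68.4% of all genes passed; this difference includes animal 5, and its value without that animal was not computed. For close-out against entry it was -0.94 (SE 0.69, edgeR adjusted p = 0.229), where 64.6% of genes passed, and for close-out against pulled -0.04 (SE 0.67, edgeR adjusted p = 1), where 0 genes passed by edgeR and 0 by limma-voom, and 261 genes had an unadjusted p under 0.05 by edgeR. With library totals the differences of HP were -0.29, -0.33 and -0.04, while the median difference of all genes was 0.65, 0.68 and 0.02 in the same order of comparisons. HP was thus not among the many genes whose change since entry differed between the sets at this threshold, with standard errors of 0.71 and 0.69 log2 units.

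**Figure D3:**
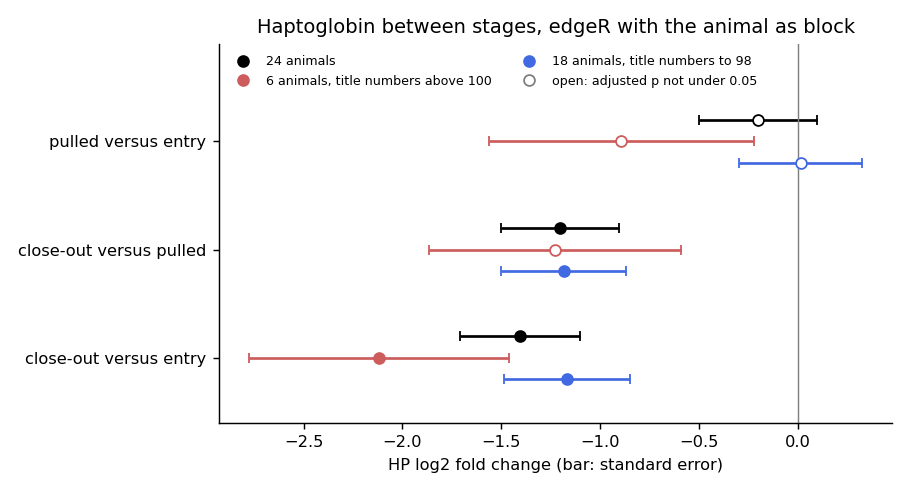
HP log2 fold changes between stages from edgeR fits with the animal as block, with bars for the standard error, in all 24 animals (black), the 6 with title numbers above 100 (red) and the 18 with numbers up to 98 (blue). Filled points have an adjusted p under 0.05. The comparisons of close-out lie between -1.17 and -2.12, and those of pulled against entry between -0.89 and 0.02.

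The levels of the sets at a single stage did not differ past the threshold. At entry mean log2 CPM was 9.64 ± 1.29 in the 6 animals and 8.94 ± 1.04 in the 18 (SD), a difference of 0.70 (permutation test, adjusted p = 0.58 over 3 tests). Scaled by library totals that difference was 0.20. At pulled the means were 8.61 ± 2.07 and 8.94 ± 0.98, a difference of -0.33 (permutation test, adjusted p = 0.68), and at close-out 7.63 ± 0.77 and 7.80 ± 0.89, a difference of -0.17 (permutation test, adjusted p = 0.68), in the same order of sets. Among the 6 entry libraries, the HP level and the TMM factor ran in exactly opposite order (Spearman rho = -1, exact permutation adjusted p = 0.0444 over 16 tests). Pearson r was -0.872 (exact permutation adjusted p = 0.0222), and -0.997 without the 2 libraries farthest from the median factor. The scaled level is already divided by this factor, so an inverse relation is in part built in. By library total alone, animals 6 and 7 held 554.1 and 554.4 CPM at entry, with factors of 0.870 and 0.887. On that measure only animals 6 and 7 changed places, and the others stayed in opposite order. The order was thus nearly, but no longer exactly, opposite, and its rho was not computed. The part of the scaling in the HP level of these 6 libraries was not tested.

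HP varied between animals more than most genes. Over the 24 animals log2 CPM had an SD of 1.12 (entry), 1.29 (pulled) and 0.85 (close-out), where the median SD of all 12655 genes was 0.542, 0.487 and 0.423. By this SD 7.38% of genes varied more than HP among entry libraries, 2.29% among pulled and 8.19% among close-out libraries. Within the sets these shares were 2.36% in the 6 animals and 2.85% in the 18 at entry, and 0.529% and 7.18% at pulled, so the order of the stages depends on the animals taken. Among genes with a mean within 1 log2 unit of HP, the SD was higher than that of HP in 8 of 489 genes at entry, 9 of 756 at pulled and 21 of 1430 at close-out. Without animal 10 the SD at close-out was 0.64 (n = 23). At pulled much of the spread was in the 6 animals, with an SD of 2.07 (lowest 36.1 CPM, highest 2166 CPM) against 0.98 in the 18; whether these SDs differ was not tested.

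Animals with much HP at pulled tended to have much of it at close-out. Over 24 animals the levels at pulled and close-out had a Spearman rho of 0.529 (permutation test, adjusted p = 0.0251 over 3 tests), but a Pearson r of 0.321 (permutation test, adjusted p = 0.275), and without the 2 animals farthest from the median pulled level r was 0.135 and rho 0.421. Without the doubted pulled libraries rho was 0.577 over 22 animals (permutation test, adjusted p = 0.0173) and r 0.367 (permutation test, adjusted p = 0.172). Within the 18 animals rho was 0.333 (permutation test, adjusted p = 0.261), which did not pass the threshold. Because the entry libraries form separate sets, relations with entry are given in the 18 animals. Entry and pulled had a rho of 0.430 and an r of 0.328 (permutation tests, adjusted p = 0.114 and 0.275), with r = 0.461 without the 2 animals farthest from the median entry level. Leaving out the doubted pulled libraries, these were a rho of 0.497 and an r of 0.409 in 16 animals (permutation tests, adjusted p = 0.0778 and 0.172). Entry and close-out had a rho of 0.187 and an r of -0.01 (permutation tests, adjusted p = 0.459 and 0.983), with r = 0.189 without the 2 extreme animals. The rank order of animals at entry was therefore not carried to close-out past the threshold.

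Other genes were ranked by their Spearman rho with HP across animals within a stage, with a permutation p adjusted over the 12654 other genes. At entry, in the 18 animals, 76 genes correlated positively and 20 negatively, or 0.759% of genes. At that stage 19.4% of genes had an unadjusted p under 0.05. In the 6 animals at entry 0 genes passed by rho and 0 by Pearson r, and 975 had an unadjusted p under 0.05 by rho in the exact permutation test, whose smallest p with 6 animals is 0.00278. At pulled, in 24 animals, 237 genes correlated positively and 308 negatively, or 4.31%, with rho from -0.824 to 0.863. At close-out 68 genes correlated positively and 122 negatively, or 1.5%, with rho from -0.814 to 0.787.

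The counts moved with the animals that entered. At pulled, 81 genes passed without the libraries of animals 9 and 12, 3 passed in the 18 animals and 0 in the 6, where 893 had an unadjusted p under 0.05. At close-out 74 genes passed without animal 10, 0 in the 18 animals (Pearson r was not run there) and 0 in the 6, where 1343 and 344 genes had an unadjusted p under 0.05. At entry 60 genes passed without animal 11. Across the 12654 genes the values of rho had a correlation of 0.743 between entry and pulled, 0.458 between pulled and close-out and 0.367 between entry and close-out. The first of these sets the entry library of animal 11 beside the library labelled pulled of animal 9, which had nearly its counts. Without the pulled libraries of animals 9 and 12 it was 0.738, and without animal 11 at entry as well it was 0.641. Pulled without those 2 libraries and close-out had 0.53. Genes are not independent replicates, the same animals stand at every stage, and these are descriptions with no test. Of the 76 positive genes at entry, 34 were among the 237 at pulled, which is 44.7% of the entry list and 14.3% of the pulled list. Without the pulled libraries of animals 9 and 12 the entry list shared 14 genes with the 50 positive genes of the pulled list, 18.4% and 28% of these lists. The negative lists of entry and pulled shared 7 genes, 35% of the 20 at entry and 2.27% of the 308 at pulled. Without those libraries they shared 2 genes, 10% and 6.45% of these lists. The entry and close-out lists shared 9 positive genes, 11.8% and 13.2% of these lists, and 1 negative gene of 20 at entry and 122 at close-out. The pulled and close-out lists shared 23 positive genes, 9.70% and 33.8% of these lists, and 35 negative genes, 11.4% and 28.7%, and without those 2 libraries 10 positive and 6 negative genes. No gene past the threshold at 2 stages changed sign between them (0 genes in each pair of stages), and 7 positive genes and 1 negative gene passed at all 3 stages. The counts over all 3 stages use the full pulled list and were not computed without the doubted libraries.

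The genes most like HP were taken as those whose lowest rho over the 3 stages (entry in 18 animals, pulled and close-out in 24) was highest. The 10 leading genes had a lowest rho of 0.670 to 0.787, and the 10 genes most opposite to HP had a highest rho of -0.706 to -0.622. The identifiers of 2 genes per direction are given, since the table pairs none with a name. ENSBTAG00000013631 led the positive genes. Its Spearman rho with HP was 0.882 (entry), 0.827 (pulled) and 0.787 (close-out) (permutation tests, adjusted p = 0.022, 0.00666 and 0.0198). Pearson r was 0.886, 0.902 and 0.826 (unadjusted permutation p = 1e-05, 1e-05 and 4e-05, where 1e-05 is the smallest that 100000 resamples give). The gene was picked for its rho in the same libraries, so the p-values of r are no separate evidence. Without the 2 animals farthest from the median of this gene r was 0.795, 0.833 and 0.769. Leaving out the doubted libraries gave a rho of 0.804 at pulled. In the 18 animals rho was 0.812 (pulled) and 0.736 (close-out). In the 6 animals it was 0.657 (entry), 0.886 (pulled) and 0.60 (close-out). The animal with the highest HP at close-out, animal 10, also had the highest level of ENSBTAG00000013631 there.

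ENSBTAG00000019669 followed, with a Spearman rho of 0.884 (entry), 0.750 (pulled) and 0.770 (close-out) (permutation tests, adjusted p = 0.022, 0.0121 and 0.0198). Its Pearson r was 0.886, 0.828 and 0.818 (unadjusted permutation p = 1e-05, 2e-05 and 2e-05), and 0.790, 0.831 and 0.60 without the 2 extreme animals. Leaving out the doubted libraries gave a rho of 0.723 at pulled. In the 18 animals rho was 0.670 (pulled) and 0.748 (close-out). In the 6 animals it was 1 (entry), 0.943 (pulled) and 0.429 (close-out). Among the opposite genes, ENSBTAG00000002036 came first, with a rho of -0.860 (entry), -0.790 (pulled) and -0.706 (close-out) (permutation tests, adjusted p = 0.022, 0.00816 and 0.0353). ENSBTAG00000020758 came next, with a rho of -0.701, -0.694 and -0.807 at the same stages (permutation tests, adjusted p = 0.0775, 0.0236 and 0.0198), so that it did not pass at entry. Pearson r of ENSBTAG00000002036 was -0.821, -0.759 and -0.823, and that of ENSBTAG00000020758 was -0.795, -0.720 and -0.773. Leaving out the doubted libraries, their rho at pulled was -0.775 and -0.662 in this order. These genes were picked for their rho, so their values describe the choice and their p-values are no separate evidence.

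**Figure D4:**
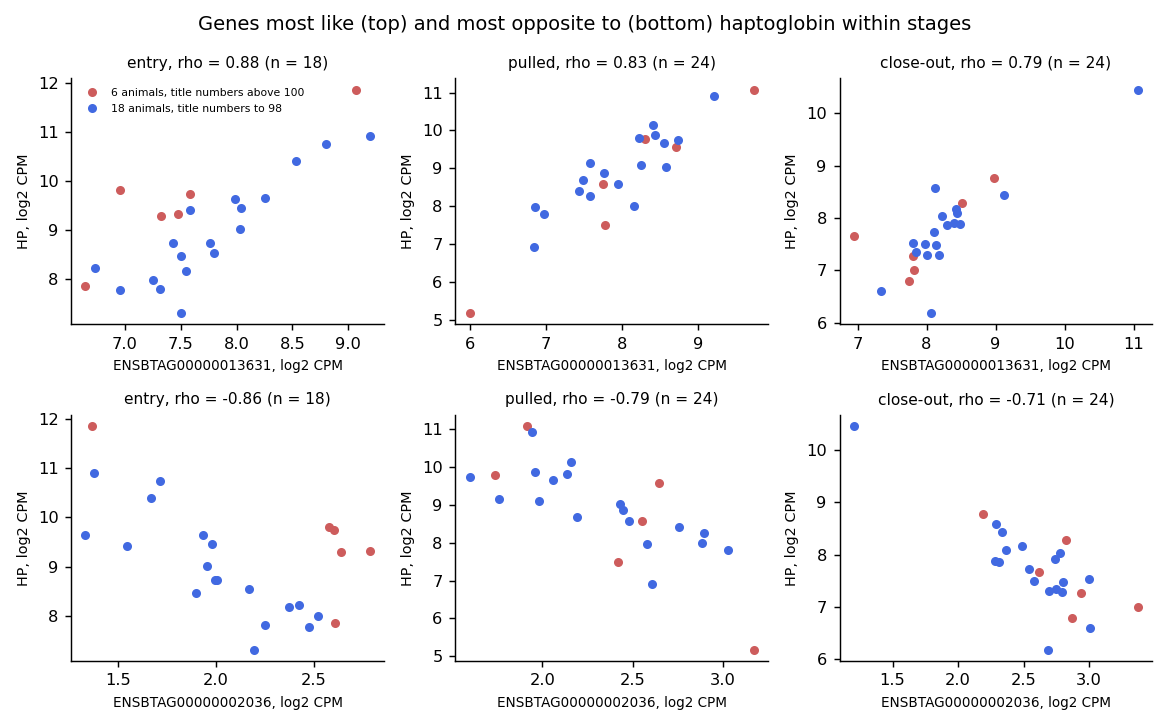
HP log2 CPM (vertical) against log2 CPM of the gene most like it, ENSBTAG00000013631 (top), and the gene most opposite to it, ENSBTAG00000002036 (bottom), at entry, pulled and close-out, with 1 point per animal. Red points are the 6 animals with title numbers above 100 and blue points the other 18, and the rho at entry is over the 18. At close-out the point of animal 10 stands apart in both panels.

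Genes close to HP within the stages did not all change between stages as HP did; whether they differed from HP was not tested. HP fell at close-out, while ENSBTAG00000013631 had mean log2 CPM values of 7.79 at entry in the 18 animals and 7.97 at pulled and 8.24 at close-out in 24, and its log2 fold change was 0.23 for close-out against pulled (SE 0.22, edgeR quasi-likelihood adjusted p = 0.47) and 0.50 for close-out against entry (SE 0.22, edgeR quasi-likelihood adjusted p = 0.0932). ENSBTAG00000019669 fell with HP at close-out against pulled, by a log2 fold change of -1.09 (SE 0.37, adjusted p = 0.0221 by edgeR), and had -0.60 against entry (SE 0.37, edgeR adjusted p = 0.229). Of the 10 genes most like HP, 2 fell and 0 rose at close-out against pulled, where 13.9% of all genes were lower and 13.3% higher. At close-out against entry 0 fell and 1 rose, where 12.0% of all genes were lower and 10.2% higher. These counts are near the shares over all genes and are no result about the 10. Their median log2 fold change was 0.05 and 0.08 in these comparisons, beside -0.01 and -0.02 over all genes. Of the 10 most opposite genes, 1 fell and 3 rose at close-out against pulled, and 0 fell and 2 rose at close-out against entry, with median log2 fold changes of 0.00053 and 0.10. With 10 genes these counts too say nothing particular of the list beside the shares over all genes.

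Library measures had no relation with HP past the threshold, apart from the TMM factor in the 6 entry libraries. Total count, TMM factor, number of genes with a count and share of the 10 most abundant genes were each set against HP at entry in the 6 and the 18 animals and at pulled and close-out in 24, which made 16 relations. The TMM factor of the 6 entry libraries, given above, was the one that passed. A relation of the TMM factor with the scaled HP level is in part built in, there and at the other stages. In the same 6 libraries the share of counts in the 10 most abundant genes had a rho of 0.886 (exact permutation test, adjusted p = 0.138; r = 0.830, adjusted p = 0.158), and r was 0.417 without the 2 libraries farthest from its median. At close-out the share of counts in the 10 most abundant genes had a rho of 0.437 with HP (permutation test, adjusted p = 0.138; r = 0.341, adjusted p = 0.288), the TMM factor a rho of -0.408 (permutation test, adjusted p = 0.153; r = -0.436, adjusted p = 0.158) and the total count a rho of 0.437 (permutation test, adjusted p = 0.138; r = 0.228, adjusted p = 0.44). Without the 2 libraries farthest from the median of each measure, r was 0.412, -0.513 and 0.202. At pulled the absolute rho of the 4 measures was 0.257 or less. The part of these measures in the results was not tested.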

How the data were processed

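Blood RNA from 24 male beef cattle at 3 stages was measured by poly-A RNA-seq in 72 libraries. RNA came from PAXgene tubes and libraries from a TruSeq kit, per the labels' protocols. The values are whole-number read counts per Ensembl gene, deposited by the authors with no normalization; TopHat2, HTSeq and the build UMD3.1 are named per the submitters' processing notes, while for versions, annotation and strand setting the sources used here give nothing. Reads that HP shares with overlapping or near-identical genes cannot be traced. Every column matched a sample (0 did not).

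Counts were analysed in R 4.3.3 with edgeR 4.0.16, which kept 12655 of 24616 genes by filterByExpr and scaled libraries by TMM. A quasi-likelihood model with animal as block and stage as factor was fitted to all 72 libraries, and p-values were adjusted by Benjamini-Hochberg over all genes, at a threshold of 0.05. Libraries were paired by the animal id of the labels. Standard errors were obtained from the F statistic, as the size of the log2 fold change over its square root. Levels are log2 CPM with a prior count of 2. Paired differences, sets and correlations were tested two-sided with 100000 resamples, or exactly in 6 animals (Python 3.11.15, SciPy 1.17.1). Both the fit and the correlations were tested on simulated data. For the fit these counts came from 1 mean per gene with no differences between animals, unlike the data. That simulation therefore does not show how the fit behaves on these libraries. P-values of the fits with animal as block and of the paired tests describe how the change within an animal varies over these animals. Those of the sets at a stage and of the correlations describe the spread between these animals.

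The gene, the sets of animals and the lists were chosen with earlier results of these data known. Named genes are the 2 highest and 2 lowest by the rule of the lowest and highest rho over the stages, and the 10 per direction under that rule are given as counts and ranges. Lists of pathway genes and cell markers were not used, since identifiers could not be paired with names. Alternatives were limma-voom (limma 3.58.1), DESeq2 1.42.0, library totals in place of TMM, other filters, a prior count of 0.5, no block, a test against a 1.5-fold change, and leaving out animals or doubted libraries. Leaving out animal 10, animal 11 or each of the 6 animals, the 6 animals alone in the correlations, the difference between the sets without the doubted libraries, and the likeness and overlap between stages without them were chosen after seeing the data.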

Additional observations from a re-analysis of the deposited data

How the results depend on the processing

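The falls at close-out in 24 animals kept their direction and passed under every scaling, filter and tool tried, apart from the test against a 1.5-fold change, where the log2 fold changes of -1.20 against pulled and -1.40 against entry no longer passed. With that test 86, 316 and 131 genes passed for pulled against entry, close-out against pulled and close-out against entry, beside 5320, 3446 and 2812 in the test against no change. Leaving out each animal in turn gave -0.35 to -0.03, -1.36 to -1.07 and -1.59 to -1.23 for HP in these comparisons, and 4285 genes for close-out against entry without animal 2. Without the replicate block, that is without pairing by animal, the values were -0.26, -1.26 and -1.52, and the block changed no call of HP; close-out against pulled in the 6 animals had 143 genes past the threshold without it, beside 314. In the 6 animals, leaving out 1 animal gave -1.39 to -0.16 for pulled against entry, -1.71 to -0.90 for close-out against pulled, with 85 to 179 genes past the threshold without animals 2, 5, 6 or 7, and -2.44 to -1.45 for close-out against entry, with 2366 to 2889 genes without animals 2 or 6.

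Signs that changed belonged to values that passed under no setting. Pulled against entry in the 18 animals, 0.02, was -0.27 with library totals, -0.066 without the replicate block and -0.14 without the doubted libraries, and the paired mean there, 0.00, was -0.31 with totals and -0.13 without those libraries. The difference between the sets for close-out against pulled, -0.04, was 0.23 with limma-voom. The relation of close-out with entry, a rho of 0.187, was -0.0056 by Pearson r. Genes detected at pulled had a rho of -0.0017 with HP without the doubted libraries.

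The relation of close-out with pulled, a rho of 0.529 that passed, no longer passed in the 18 animals (0.333) or by Pearson r (0.321), with the same sign. Genes past the threshold by Pearson r in place of rho numbered 1356 (entry), 2638 (pulled) and 661 (close-out). Further counts were 60 without animal 11 at entry, 81 without the doubted libraries, 3 in the 18 animals and 0 in the 6 at pulled, and 74 without animal 10, 0 in the 18 and 0 in the 6 at close-out. With library totals close-out had 1051 such genes, 59 positive and 992 negative. The cause was not tested. Leaving out each animal in turn aside, 95 recomputed values counted as unchanged. Of the others, 11 counts moved, 8 values changed sign and 4 no longer passed. The 95 include gene counts, which have no direction, such as 787 at pulled with library totals beside 545. They also include values that could not change. Without the doubted pulled libraries the paired differences of close-out against entry were the same numbers. The correlations with entry had already been computed in the 18 animals. The number 95 is therefore no measure of how firm the results are. HP had 466 reads or more in every library.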

Other observations

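The library labelled pulled of animal 9 held 35265 HP reads, or 2104 CPM by library total alone, and the entry library of animal 11 held 47103 reads, or 2086 CPM. HP had rank 35 by count in both libraries.

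In the pulled library of animal 4, with the lowest HP level of the study, HP had rank 4299 by count among the genes of its library, while the library held 13.3 M reads and 14747 genes with a count, inside the range of 14436 to 15592 genes of the pulled libraries. The close-out library of animal 10 held 14968 genes with a count, inside the range of 14849 to 15831 of its stage, and its 10 most abundant genes took 8.57% of counts, inside 5.48% to 10.2%.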
